A study of Mus musculus with 8 samples.

Results

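A set of 10 genes that mark macrophages and other leukocytes was followed through chondrocyte libraries of 2 mouse lines with an altered miR-140 gene. They are Ptprc, Cd68, Csf1r, Adgre1, Itgam, Chit1, Tyrobp, Fcer1g, Lyz2 and Pik3cd. They were chosen by gene symbol, and all 10 were found among the 18501 genes of the deposited table. The 8 libraries come from rib cartilage of 10-day-old CD1 mice, digested with collagenase and plated before RNA extraction, and are labelled as chondrocytes. The CT mutants carry a C>T base change, and the CT wild types are the wild-type group of that line. The CG mutants carry a mutation in the seed region of the 3p arm, and the CG wild types are the wild-type group of that line. Each of the 4 groups has 2 libraries, and both alterations are described as raising the 5p arm. The labels do not say whether the mice were littermates or whether cells of several mice were pooled.

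The seed of a microRNA is the stretch near its 5′ end that pairs with target messages, and it is the part altered in the CG line. The RefSeq entry of the mature 3p arm is shown with its seed, bases 2 to 8, in capitals.
mmu-miR-140-3p: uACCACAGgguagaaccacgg

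Macrophages and other myeloid cells share a set of surface receptors and signalling adaptors. Macrophages depend on the CSF1 receptor for survival, adhere through beta-2 integrins, and signal through adaptors that carry ITAM motifs and recruit the kinase Syk and PI3-kinases. Cartilage matrix itself holds no blood vessels, but marrow, perichondrium and blood next to it contain such cells, and digestion of a whole rib can carry them into a culture. In bulk RNA a lower level can mean fewer cells of a type or less RNA per cell, and these cannot be told apart here.

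Total counts ran from 26536868 to 28678641 per library. Line was the main axis of variation (principal component 1, 64.5%). On component 2 (12.2%) CG mutant replicate 1 scored 47.0 and CG mutant replicate 2 scored -8.37. Counts of the Y-linked gene Ddx3y were above 1000 in 5 of the 8 libraries: both CG mutants, and 1 library in each of the other groups.

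Per unit of transcript length, Lyz2 and Cd68 were the most abundant of the markers, with means of 16.6 and 15.3 FPKM over the 8 libraries. Chit1 followed at 5.52, Tyrobp at 5.21, Pik3cd at 4.29, Fcer1g at 3.56, Itgam at 2.37 and Csf1r at 1.22 FPKM. Ptprc at 0.661 and Adgre1 at 0.539 FPKM were lowest. Every neighbouring pair in this order overlapped in its range over the libraries. The order differed by group. Lyz2 led in CT wild types at 32.2 ± 5.42 FPKM (SD, n = 2), ahead of Cd68 at 18.5 ± 0.0495, whereas in CG mutants Chit1 at 11.9 ± 7.35 and Cd68 at 10.1 ± 5.40 FPKM stood above Lyz2 at 7.50 ± 6.07.

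The label of a macrophage marker set was checked against 27 further macrophage and monocyte genes. Of these, 20 passed the filter on low counts. The complement genes C1qa, C1qb and C1qc and the genes Cx3cr1, Cd163, Timd4 and Aif1, all typical of tissue-resident macrophages, did not pass it and lay between 0 and 0.282 CPM (read counts scaled to library size) in every library. By contrast, Cd14, a co-receptor for bacterial lipopolysaccharide, was at 241.5 to 526.7 CPM, and Gpnmb, a glycoprotein of macrophages that other cells also make, at 32.4 to 222.7 CPM. Over all 27 genes the summed level was 460.4 and 474.8 CPM in CT mutants, 428.8 and 414.3 in CT wild types, 563.6 and 671.9 in CG mutants, and 677.8 and 581.7 CPM in CG wild types. Cd14 and Gpnmb carry most of that sum, and the median log2 fold change of the 20 tested genes in CT wild types against CG wild types was 1.02, with 14 above 0.

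Ptprc encodes CD45, the phosphatase found on nearly all nucleated blood cells. It was at 2.55 and 3.72 CPM in the pair of CT mutants and 9.98 and 4.86 in the CT wild types. In the CG line it was at 0.374 and 0.992 CPM in CG mutants and 1.20 and 1.68 CPM in CG wild types. In each line both mutant libraries lay below both wild-type libraries, and every CT library lay above every CG library of the same genotype class.

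Itgam encodes CD11b, the alpha chain of the complement receptor integrin of macrophages and neutrophils. It was at 9.77 and 11.8 CPM in the pair of CT mutants and 28.5 and 15.9 in the CT wild types. In CG mutants it was at 1.83 and 5.92 CPM, and in CG wild types at 4.71 and 6.07 CPM. The CT groups did not overlap, while CG mutant replicate 2 lay among the CG wild types.

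Cd68, a lysosomal glycoprotein gene, varied least of the markers. It was at 20.2 and 20.3 CPM in the pair of CT mutants and 20.7 and 20.02 in the CT wild types, and at 8.23 and 16.5 CPM in CG mutants and 18.2 and 14.8 CPM in CG wild types. Its highest library was 2.52-fold above its lowest, against 26.7-fold for Ptprc and 37.4-fold for Tyrobp. Csf1r, the receptor of the growth factors CSF1 and IL-34, was at 3.83 and 5.62 CPM in the pair of CT mutants and 6.49 and 5.34 in the CT wild types. In CG mutants it was at 0.582 and 4.85 CPM, and in CG wild types at 3.48 and 4.71 CPM. The 7 libraries other than CG mutant replicate 1 lay between 3.48 and 6.49 CPM. Adgre1 encodes F4/80, the classical surface marker of mouse macrophages. It was at 1.77 and 1.49 CPM in CT mutants, 2.33 and 1.90 in CT wild types, 0.416 and 2.44 in CG mutants, and 1.27 and 1.64 CPM in CG wild types. Its lowest and highest values both came from CG mutants, which differed 5.88-fold from each other.

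Tyrobp, the gene of the adaptor DAP12, was at 2.09 and 2.47 CPM in the pair of CT mutants and 6.21 and 4.49 in the CT wild types. In CG mutants it was at 0.166 and 1.34 CPM, and in CG wild types at 0.797 and 1.60 CPM. The lowest of these values rests on 4 counts, with a Poisson 95% interval of 1.09 to 10.2 counts that covers counting error only. Fcer1g, the gene of the Fc receptor gamma chain, was at 1.60 and 1.86 CPM in the pair of CT mutants and 3.95 and 2.82 in the CT wild types. It was at 0.623 and 1.37 CPM in CG mutants and 1.56 and 2.00 CPM in CG wild types. For Fcer1g both mutant libraries lay below both wild-type libraries in either line.

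Lyz2 encodes the lysozyme of macrophages and neutrophils. It was at 12.7 and 17.9 CPM in the pair of CT mutants and 33.8 and 25.6 in the CT wild types, and at 3.53 and 11.7 CPM in CG mutants and 8.40 and 11.1 CPM in CG wild types. The CT groups did not overlap and the CG groups did. Lyz1, its neighbouring copy, stood at 0.332 to 3.03 CPM. How the counting shared reads among such near copies is unknown, which leaves the level of each uncertain. Of the 250 bases before their start sites, 60.8% were the same when compared position by position without gaps. A shift of 1 base puts matching stretches out of register, so this value can understate their likeness. It does not measure how alike the transcripts are. Itgam is shown because it varied with Lyz2 (Pearson r = 0.99 over 8 libraries, across 2 lines and CG mutant replicate 1, so a description only). Chit1 is shown because it ran the other way. Capitals mark GAGGAA on either strand, the core bound by PU.1, the myeloid transcription factor that Spi1 encodes. Sequences are from RefSeq on GRCm38.p6, 5′ to 3′ along the gene's strand.
Lyz2, chr10:117282273-117282522, minus strand: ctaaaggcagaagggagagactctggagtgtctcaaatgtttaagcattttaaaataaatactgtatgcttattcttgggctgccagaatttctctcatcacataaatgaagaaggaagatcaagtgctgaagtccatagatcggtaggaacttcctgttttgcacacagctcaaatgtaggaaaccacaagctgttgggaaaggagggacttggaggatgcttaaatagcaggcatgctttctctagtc
Lyz1, chr10:117292869-117293118, minus strand: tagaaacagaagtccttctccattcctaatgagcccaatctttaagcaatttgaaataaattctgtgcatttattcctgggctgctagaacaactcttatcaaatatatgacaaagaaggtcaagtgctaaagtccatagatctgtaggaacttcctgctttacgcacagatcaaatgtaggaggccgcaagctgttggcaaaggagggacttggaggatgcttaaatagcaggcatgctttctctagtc
Itgam, chr7:128062390-128062639, plus strand: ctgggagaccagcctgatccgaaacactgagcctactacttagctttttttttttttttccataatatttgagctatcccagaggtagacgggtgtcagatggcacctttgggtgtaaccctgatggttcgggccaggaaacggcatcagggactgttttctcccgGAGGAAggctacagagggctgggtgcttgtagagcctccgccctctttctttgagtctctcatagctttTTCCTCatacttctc
Chit1, chr1:134110992-134111241, plus strand: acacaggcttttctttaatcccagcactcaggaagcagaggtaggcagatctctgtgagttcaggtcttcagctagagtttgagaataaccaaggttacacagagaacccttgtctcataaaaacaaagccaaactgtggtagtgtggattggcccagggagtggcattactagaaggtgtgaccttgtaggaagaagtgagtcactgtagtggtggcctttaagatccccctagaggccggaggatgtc
The core occurred in 23.1% of 27025 promoter windows of this length and in 3 of the 7 member windows listed, those of Itgam, Ptprc and Cd68. The C/EBP motif TTGCNNAA, on either strand, occurred in 9.6% of windows, and among members in Cd68. TATAAA, on either strand, occurred in 13.0% of windows, and among members in Ptprc. Motifs may overlap each other, and a match is a description of letters only. Windows of Tyrobp, Adgre1 and Csf1r were not used here.

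Pik3cd encodes the p110 delta catalytic subunit of PI3-kinase, best known in leukocytes. It was at 20.2 and 16.3 CPM in the pair of CT mutants and 37.0 and 29.9 in the CT wild types. In CG mutants it was at 6.94 and 8.05 CPM, and in CG wild types at 17.9 and 26.9 CPM. In both lines the mutant libraries lay below the wild-type libraries, and the 2 CG mutants differed 1.16-fold, the smallest ratio between them among the 10 markers.

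Chit1 encodes chitotriosidase, a chitinase that activated macrophages secrete in humans. It was at 0.131 and 0.305 CPM in CT mutants, on 4 and 9 counts, and at 0.247 and 0.204 CPM in CT wild types, on 7 and 6 counts. In the CG line it was at 33.6 and 11.8 CPM in CG mutants and 13.9 and 22.0 CPM in CG wild types, on 310 to 808 counts. Both CG groups lay above both CT groups, the opposite order to the other markers in the wild types, and its level in CG mutant replicate 1 was the highest of all 8 libraries.

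**Figure D1:**
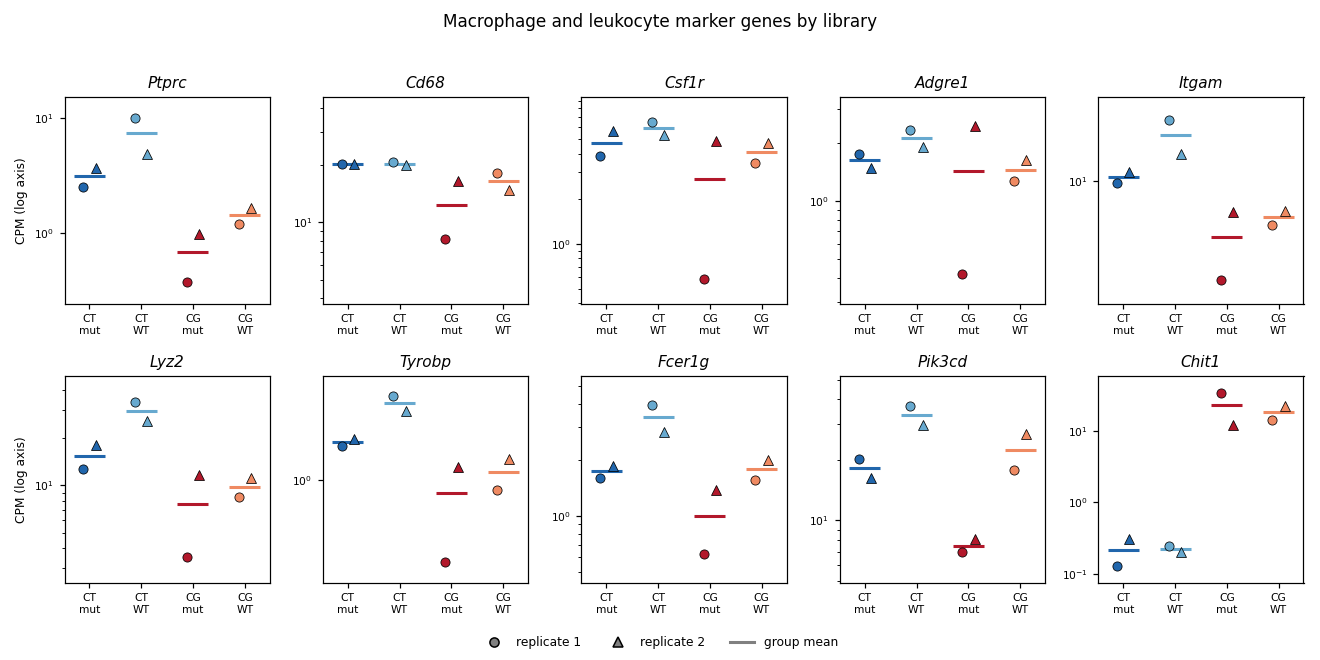
Level of each of the 10 markers in CPM (log axis) in the 2 libraries of each group; circles are replicate 1, triangles replicate 2 and bars the group mean. CG mutant replicate 1 is lowest for 9 of the 10 genes and highest for Chit1.

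CG mutant replicate 1 held the lowest value for 9 of the 10 markers, all but Chit1. Over all 14359 genes tested, that library was lowest for 19.9%. CT wild-type replicate 1 held the highest value for 8 markers and for 15.0% of all genes. Within the CG mutants the replicates differed 8.33-fold for Csf1r, 8.04-fold for Tyrobp, 3.31-fold for Lyz2 and 3.24-fold for Itgam, with replicate 2 above replicate 1. Other cell type markers moved with that library. Col1a1, the main collagen of fibroblasts and bone, was at 103.7 CPM in replicate 1 and 296.6 in replicate 2, and Cdh5, a cadherin of endothelium, at 2.95 and 11.9 CPM. Col2a1, the main collagen of cartilage, was at 41090 CPM in replicate 1 and 24140 in replicate 2. The summed chondrocyte list was 53600 and 31150 CPM in these libraries, and the part of this difference in the marker levels was not tested.

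The wild types of the lines were compared to see how the markers differ without a mutation. Of the 10 markers, 4 rose and 1 fell in CT wild types against CG wild types by edgeR's quasi-likelihood test at an adjusted p of 0.05, with 33.7% of all genes called in this comparison. Leaving out 1 library moved that count, and the number of all genes called moved too. Line, litter and any batch cannot be told apart. All but Chit1 were higher in both CT wild types than in both CG wild types, 9 of 10, with 35.7% of all genes in that position. The median log2 fold change of the markers was 0.76, and that of all genes 0.00.

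Ptprc rose 5.17-fold, a log2 fold change of 2.37 ± 0.48 (SE) (edgeR, adjusted p = 0.00806). Itgam rose by 2.04 ± 0.47 on the log2 scale (edgeR, adjusted p = 0.0133), and Tyrobp by 2.16 ± 0.63 (edgeR, adjusted p = 0.0326). Lyz2 rose by 1.61 ± 0.45 (edgeR, adjusted p = 0.0286). Chit1 fell 78.1-fold, a log2 fold change of -6.29 ± 0.67 (edgeR, adjusted p = 0.000672).

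Csf1r, Adgre1 and Cd68 did not pass. Csf1r had a log2 fold change of 0.53 ± 0.67, Adgre1 of 0.54 ± 0.62 and Cd68 of 0.30 ± 0.27, with edgeR adjusted p-values of 0.568, 0.525 and 0.416. Fcer1g was at 0.93 ± 0.37 (edgeR, adjusted p = 0.0885), and Pik3cd at 0.58 ± 0.21 with 0.0673. Without CG wild-type replicate 1 only Chit1 remained past the threshold. Without CG wild-type replicate 2 the calls were Ptprc, Chit1 and Pik3cd. Without CT wild-type replicate 1 they were Ptprc and Chit1, and without CT wild-type replicate 2 Ptprc, Itgam and Chit1. Chit1 passed in every alternative run.

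**Figure D2:**
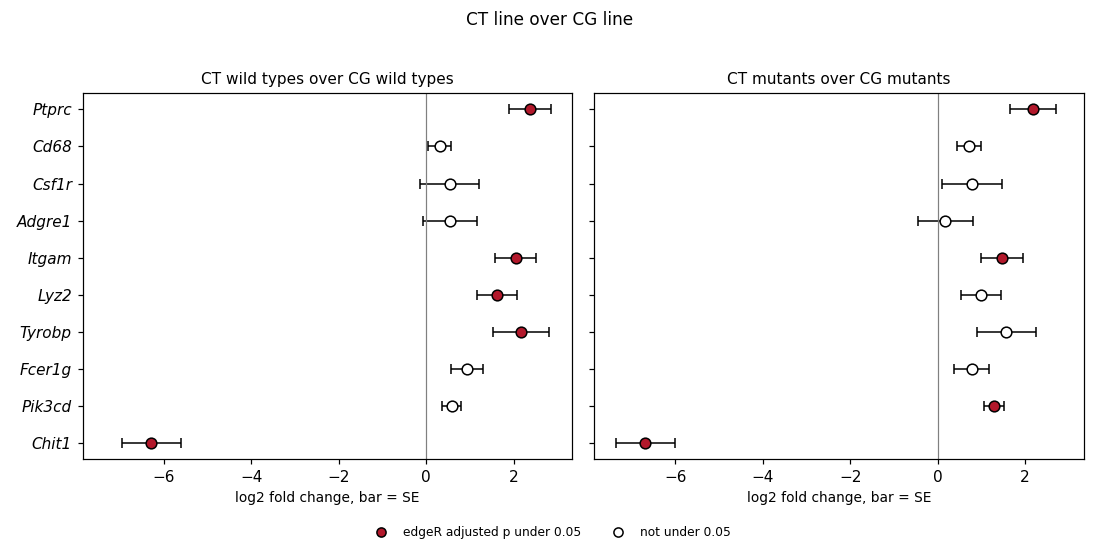
Log2 fold change of the CT over the CG line for the 10 markers, among wild types (left) and among mutants (right); bars are standard errors, filled points have an edgeR adjusted p under 0.05. Ptprc lies at 2.37 and Itgam at 2.04 in the wild types, and Chit1 at -6.29 in the wild types and -6.68 in the mutants.

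Among mutants the same contrast called 3 markers higher and 1 lower, with 36.1% of all genes called. Ptprc rose by 2.18 ± 0.52 on the log2 scale in CT mutants against CG mutants (edgeR, adjusted p = 0.0143), and Itgam by 1.47 ± 0.48 with 0.0443. Pik3cd rose 2.44-fold, a log2 fold change of 1.29 ± 0.22 (edgeR, adjusted p = 0.00385). Chit1 fell 103-fold, at -6.68 ± 0.67 (edgeR, adjusted p = 0.000481). Lyz2 at 0.999 ± 0.46 and Tyrobp at 1.57 ± 0.68 did not pass, with edgeR adjusted p-values of 0.124 and 0.104. In 7 of 10 markers both CT mutants lay above both CG mutants, with 35.5% of all genes in that position. Csf1r and Adgre1 overlapped between the groups.

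These counts turn on single libraries of both mutant groups, and the number of all genes called moved too. Without CG mutant replicate 2, 9 markers lay above 0 on the log2 scale and Chit1 below, as with all libraries. The CG mutants are then the 1 library that was lowest for 9 of the 10 markers, and it is assumed to vary like the other groups. Without CG mutant replicate 1 the calls were Pik3cd at 1.18 and Chit1 at -5.75. Without CT mutant replicate 2 they were Pik3cd and Chit1 as well. The wild-type and mutant comparisons use different libraries, but the mutants and wild types of a line share whatever sets the lines apart.

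Within the CT line, mutants were compared with their own wild types. No marker passed the edgeR test, against 0.00696% of all genes. At the unadjusted level 4 were under 0.05, as were 5.11% of all genes. DESeq2 called none of the markers and 0.108% of all genes, and limma called none of the markers. All 10 markers had a log2 fold change below 0, with a median of -0.91 against 0.00 over all genes. Without CT wild-type replicate 1 the median was -0.60, with 8 of 10 below 0. In 7 of them both mutant libraries lay below both wild-type libraries, where 16.3% of all genes did so. Cd68, at -0.0067 ± 0.27, Csf1r, at -0.33 ± 0.66, and Chit1, at -0.056 ± 1.09, overlapped. The signs of Cd68 and Chit1 are not fixed: Cd68 was at 0.034 without TMM scaling, and both were above 0 on the FPKM scale.

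Pik3cd had the smallest p in that comparison, at 0.00347, and lay at -0.87 ± 0.21 on the log2 scale (edgeR, adjusted p = 0.958). Ptprc was at -1.24 ± 0.44, Tyrobp at -1.23 ± 0.59 and Itgam at -1.04 ± 0.45. Fcer1g was at -0.97 ± 0.37 and Lyz2 at -0.96 ± 0.44, and the edgeR adjusted p of each was 0.958. The authors' deposited table gives a q-value of 0.00422 for Pik3cd, 0.00688 for Lyz2 and 0.0338 for Itgam in this comparison. It lists 5 of the 10 markers, and for Ptprc and Tyrobp its q-values are 0.162 and 0.116.

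Neutrophil and B cell markers were read beside the same comparison. Of 11 neutrophil genes tested, 10 had a log2 fold change below 0 against CT wild types, at a median of -1.27, and 6 of them had an unadjusted p under 0.05, against 5.11% of all genes. All 5 B cell genes were below 0, at a median of -1.28, but without CT wild-type replicate 1 the median was -0.57, with 3 of 5 below 0. Without CT mutant replicate 1 it was -0.80. None of the genes of these lists passed the edgeR test, and their part in the marker values was not tested. The summed erythroid list was 786.4 and 800.8 CPM in the pair of CT mutants and 1521 and 865.8 in the CT wild types, mostly Hba-a1. The beta-globin gene Hbb-bs went the other way, at 174.0 and 14.5 CPM in CT mutants and 4.16 and 0.306 in CT wild types (edgeR, adjusted p = 0.958). Globin genes have near-identical copies, so their separate levels are uncertain. The T cell gene Lck, at 0.26, and the mast cell gene Kit, at 0.38, were above 0 on the log2 scale. Of the 20 other macrophage and monocyte genes tested, 11 were below 0, at a median of -0.23, and 1 had an unadjusted p under 0.05. That median was 0.026 without CT wild-type replicate 1, 0.085 without CT mutant replicate 1 and -0.76 without CT mutant replicate 2.

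Within the CG line no marker passed either, against 0.00696% of all genes. At the unadjusted level 1 of 10 was under 0.05, near the share of all genes, 11.4%. DESeq2 called Pik3cd and 1.15% of all genes, and limma called no marker. Pik3cd was 2.98-fold lower in CG mutants, at a log2 fold change of -1.58 ± 0.22 (edgeR, adjusted p = 0.107). DESeq2 gave it an adjusted p of 5.82e-08, and the authors' deposited table a q-value of 1.36e-05. The edgeR adjusted p was 0.0420 with no filter on low counts and 0.0459 with a term for sex.

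The other markers were less separated in the CG line. Ptprc was at -1.05 ± 0.55 and Fcer1g at -0.82 ± 0.40, with edgeR adjusted p-values of 0.518 and 0.489. In these genes and Pik3cd both mutants lay below both wild types, 3 of 10, with 22.5% of all genes in that position. Tyrobp at -0.64 ± 0.71, Csf1r at -0.58 ± 0.70, Itgam at -0.47 ± 0.49, Cd68 at -0.41 ± 0.28, Lyz2 at -0.35 ± 0.46 and Adgre1 at -0.0080 ± 0.64 overlapped, as did Chit1 at 0.34 ± 0.44.

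CG mutant replicate 1 moved most of these values. The median over the markers was -0.52 with both CG mutants, 0.068 without CG mutant replicate 1 and -1.62 without CG mutant replicate 2. Without replicate 1 the log2 fold changes of Csf1r, Adgre1, Itgam, Tyrobp and Lyz2 were above 0 and that of Chit1 was -0.60. Without replicate 2 Cd68, Csf1r and Pik3cd were at -0.998, -2.80 and -1.68. Pik3cd stayed between -1.84 and -1.25 whichever library was left out. Of the 20 other macrophage and monocyte genes tested, 15 were below 0 in this comparison and 5 above, with none past the edgeR test. Their median of -0.42 became 0.26 without CG mutant replicate 1 and -1.54 without CG mutant replicate 2. Gpnmb was among those above 0, at means of 208.7 CPM in CG mutants and 100.3 in CG wild types. The authors' deposited table gives it a q-value of 1.42e-09.

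**Figure D3:**
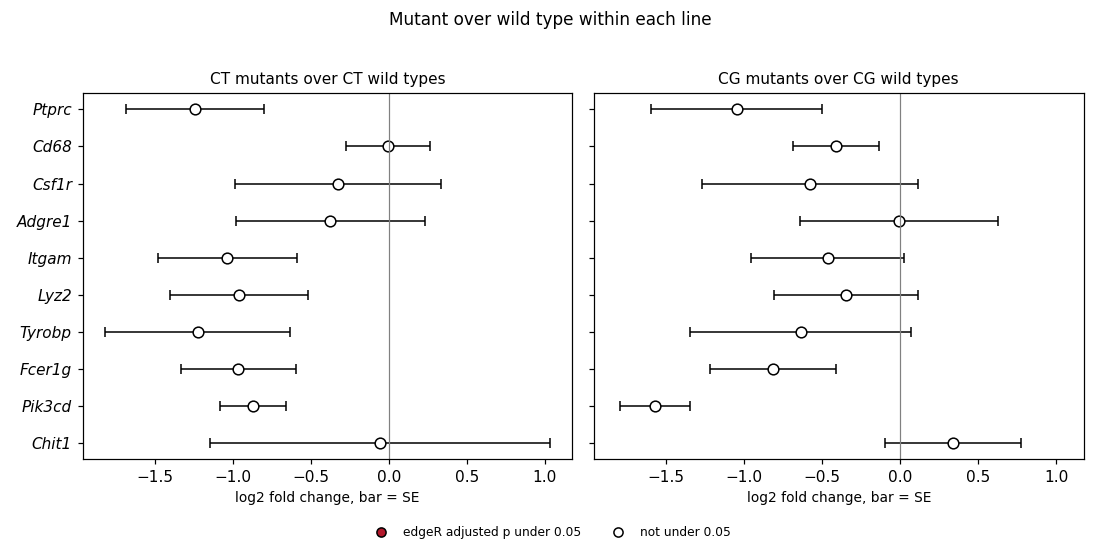
Log2 fold change of mutants over wild types for the 10 markers in the CT line (left) and the CG line (right); bars are standard errors and open points did not reach an edgeR adjusted p of 0.05. Pik3cd has the shortest bar in both panels, at -0.87 in the CT line and -1.58 in the CG line.

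Averaged over both lines, no marker passed the edgeR test, and 0% of all genes passed it. At the unadjusted level 3 were under 0.05, as were 11.5% of all genes. DESeq2 called Pik3cd and 1.12% of all genes, and limma called no marker. Pik3cd was at -1.22 ± 0.15 (edgeR, adjusted p = 0.244). Ptprc was at -1.15 ± 0.35 and Fcer1g at -0.89 ± 0.27 (edgeR, adjusted p = 0.320) for each. The mutant effects of the lines did not differ beyond the test for any marker, with 0.0209% of all genes called, none of the markers at an unadjusted p under 0.05 (4.78% of all genes) and none called by DESeq2 (0.206% of all genes). The closest was Pik3cd, at -0.71 ± 0.31 (edgeR, adjusted p = 0.967). A p of this kind does not show that the effects are alike.

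Other genes of the same pathways were read beside the markers. Of 20 ITAM adaptors, receptors and kinases, 15 were tested. In CT wild types against CG wild types 5 rose and none fell, near the 33.7% of all genes called there. The list median was 1.17. Syk, the kinase that ITAM motifs recruit, rose by 1.57 on the log2 scale (edgeR, adjusted p = 0.0126), and its substrate Plcg2 by 1.15 with 0.00465. Lyn, a Src-family kinase, was at 0.47 (edgeR, adjusted p = 0.214). All 15 lay below 0 in CT mutants against CT wild types, median -0.54, and in CG mutants against CG wild types, median -0.55, with none past the test. Unadjusted p-values were under 0.05 for 0 of these genes in the CT line, where 5.11% of all genes were, and for 2 in the CG line, where 11.4% were. The medians depend on single libraries. In the CG line the list was at 0.016 without CG mutant replicate 1, with 8 of 17 genes below 0, and at -1.42 without CG mutant replicate 2. In the CT line it was at -0.29 without CT wild-type replicate 1, with 13 of 16 below 0, and at -0.99 without CT wild-type replicate 2.

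Of 3 beta-2 integrin genes tested, 2 rose between the wild types, where 33.7% of all genes were called. Itgb2, the chain that pairs with CD11b, rose by 1.94 (edgeR, adjusted p = 0.0239). Itgal, the alpha chain of the lymphocyte integrin, rose by 1.52 with 0.0101. Itgax, the CD11c chain, was at 1.77 with 0.126.

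Of the 7 genes tested of the CSF1 receptor axis, Csf1r among them, 2 rose and 1 fell between the wild types. Of all genes 33.7% were called there. Those that rose are receptors for other growth factors: Csf2rb, a chain for GM-CSF and IL-3, by 1.47 (edgeR, adjusted p = 0.0202) and Csf3r, the G-CSF receptor, by 2.62 (edgeR, adjusted p = 0.0137). The ligand gene Csf1 was at 539.9 and 367.9 CPM in CT mutants, 715.0 and 429.5 in CT wild types, 499.4 and 793.1 in CG mutants and 870.4 and 894.8 in CG wild types. Il34 fell by 0.43 on the log2 scale in CT wild types against CG wild types (edgeR, adjusted p = 0.0217), while Csf1 at -0.63 did not pass, with 0.140. Csf2ra, a receptor chain for GM-CSF, was at 0.34 (edgeR, adjusted p = 0.136). Spi1, the PU.1 gene, was at 1.79 (edgeR, adjusted p = 0.0642).

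None of 9 further PI3-kinase genes, subunits and the adaptor Pik3ap1, passed in either mutant comparison. In CG mutants against CG wild types, Pik3ca was at -0.18, Pik3cb at 0.46 and Pik3r1 at -0.33, with edgeR adjusted p-values of 0.612, 0.396 and 0.563. In CT mutants against CT wild types they were at -0.087, 0.28 and 0.083, with edgeR adjusted p-values from 0.958 to 0.998. The median of the 9 genes was -0.17 in the CG line, 0.21 without CG mutant replicate 1 and -0.42 without CG mutant replicate 2. In the CT line it was -0.087, and leaving out a CT wild-type library gave 0.0095 (replicate 1) or -0.24 (replicate 2), so neither sign is fixed. Between the wild types 2 of the 9 rose and 1 fell, with 33.7% of all genes called.

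Markers of other blood and stromal cells were read beside the same wild-type comparison. Of all genes 33.7% were called there, 2436 higher and 2407 lower. Between the wild types, 7 of 11 neutrophil genes tested rose and 1 fell, 4 of 5 B cell genes rose, 4 of 6 erythroid genes rose and 3 of 6 endothelial genes rose. S100a9, a calcium-binding protein of neutrophils, rose by 3.15 on the log2 scale (edgeR, adjusted p = 0.00728), and Ngp, a neutrophil granule protein, by 5.94 with 0.000197. Lcn2, which chondrocytes also make, fell by 4.15 with 0.000277. Cd79a, of the B cell receptor, rose by 2.15 with 0.0153, and the globin gene Hba-a1 by 7.51 with 0.00017. Col1a1 rose by 1.89 (edgeR, adjusted p = 0.0132) and Col2a1 by 0.84 with 0.0436, while Acan was at -0.29 with 0.420. The summed neutrophil list was 278.8 and 255.7 CPM in CT mutants, 407.0 and 254.5 in CT wild types, 4434 and 2748 CPM in CG mutants and 2185 and 2745 in CG wild types, mostly Lcn2. Of 7 T cell genes Lck was at 1.84 to 6.90 CPM, and the others, Cd3d, Cd3e, Cd2, Cd4, Cd5 and Cd8a, reached at most 0.423 CPM, and the summed NK cell list was at most 0.120 CPM. Of 6 osteoclast genes tested none rose and 2 fell, of 10 chondrocyte genes 6 rose and of 7 fibroblast genes 2 rose and 1 fell. A single T cell gene, a single mast cell gene and a single dendritic cell gene could be tested, and none passed. Of 20 other macrophage genes tested, 4 rose and 2 fell. Mertk, a receptor for apoptotic cells, rose by 2.52 (edgeR, adjusted p = 8.7e-05), Cd14 fell by 0.98 with 0.00323 and Gpnmb fell by 1.27 with 0.0302. Unlike 9 of the 10 markers, Mertk was not lower in CG mutant replicate 1 (10.4 CPM) than in replicate 2 (10.1 CPM). The part of these cell types in the marker differences was not tested.

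**Figure D4:**
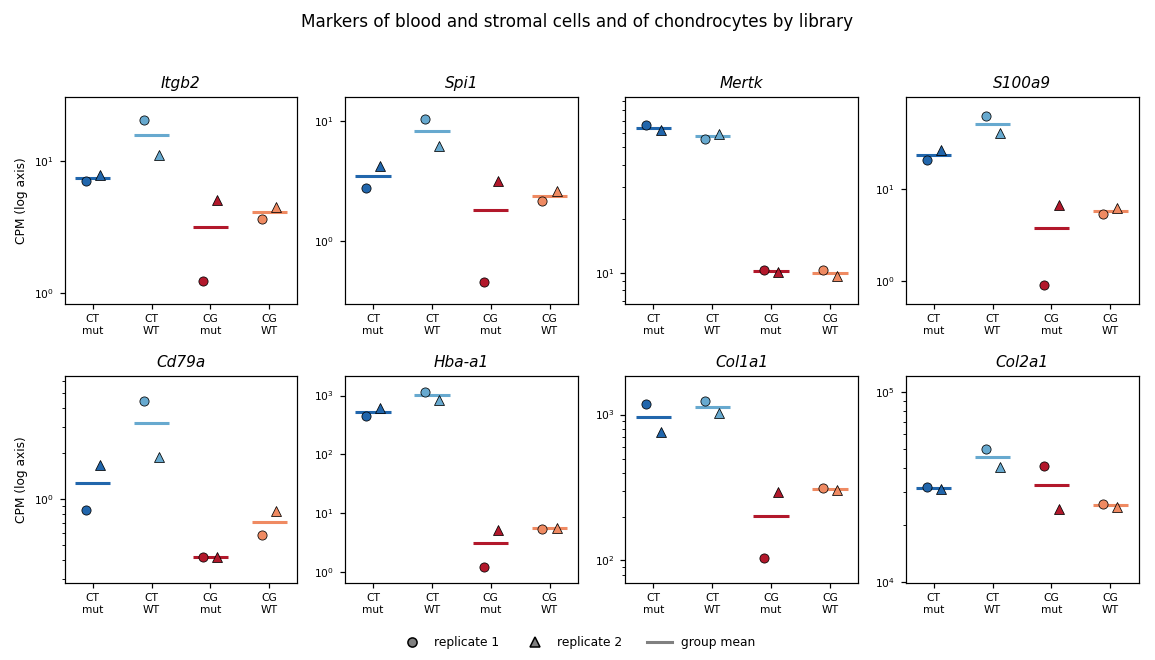
Level in CPM (log axis) in each library of the myeloid genes Itgb2 and Spi1 and of Mertk, from the macrophage list. Also shown are a neutrophil gene (S100a9), a B cell gene (Cd79a), an erythroid gene (Hba-a1), a fibroblast collagen (Col1a1) and the cartilage collagen (Col2a1). Circles are replicate 1, triangles replicate 2 and bars the group mean. All but Mertk and Col2a1 have their lowest value in CG mutant replicate 1, which for Cd79a nearly equals CG mutant replicate 2.

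Outside the list, the genes whose log2 level followed the mean of the markers best over the 8 libraries were Clec4d, Stfa3, Ovca2, Mpeg1, Cdkn2d, Phospho1, Lilrb4a, Rbpj, Spi1 and Ncf4, with Pearson r from 0.98 to 0.95 among 11498 genes ranked. The lectin receptor gene Clec4d led at 0.98, and Mpeg1, a pore-forming protein of macrophages, was at 0.97. The libraries share line and the low CG mutant replicate 1, so these values describe the pattern only. Of the markers themselves, Fcer1g followed that mean best, at 0.97, and Chit1 worst, at -0.51. Each marker is part of that mean, which raises its r, so these values cannot be set beside those of the outside genes.

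Chit1 was set beside its protein-coding neighbours on chromosome 1, a choice made after its values were seen. Chil1, next to it and also of the chitinase family, fell by 4.36 ± 0.31 on the log2 scale in CT wild types against CG wild types (edgeR, adjusted p = 0.000173). Chil1 was at 696.4 CPM on average in CT mutants, 745.4 in CT wild types, 18540 in CG mutants and 15340 in CG wild types. Myog, the muscle factor 4 genes away, fell by 4.08 ± 0.83 (edgeR, adjusted p = 0.00857). Between Chil1 and Myog, Mybph at 0.10 ± 0.74 and Adora1 at -0.50 ± 0.49 did not pass. On the other side Btg2 at -0.37 ± 0.24 and Optc at -0.87 ± 0.38 did not pass. The small proteoglycan gene Fmod rose by 0.43 ± 0.12 (edgeR, adjusted p = 0.0285), while Prelp, of the same proteoglycan family, fell by 0.97 ± 0.24 (edgeR, adjusted p = 0.0168). Among other chitinase genes, Chil3, a myeloid lectin, rose by 5.36 (edgeR, adjusted p = 0.00126), and Ctbs was at -0.20 with 0.438. Chit1 and Chil3 thus went opposite ways between the lines.

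**Figure D5:**
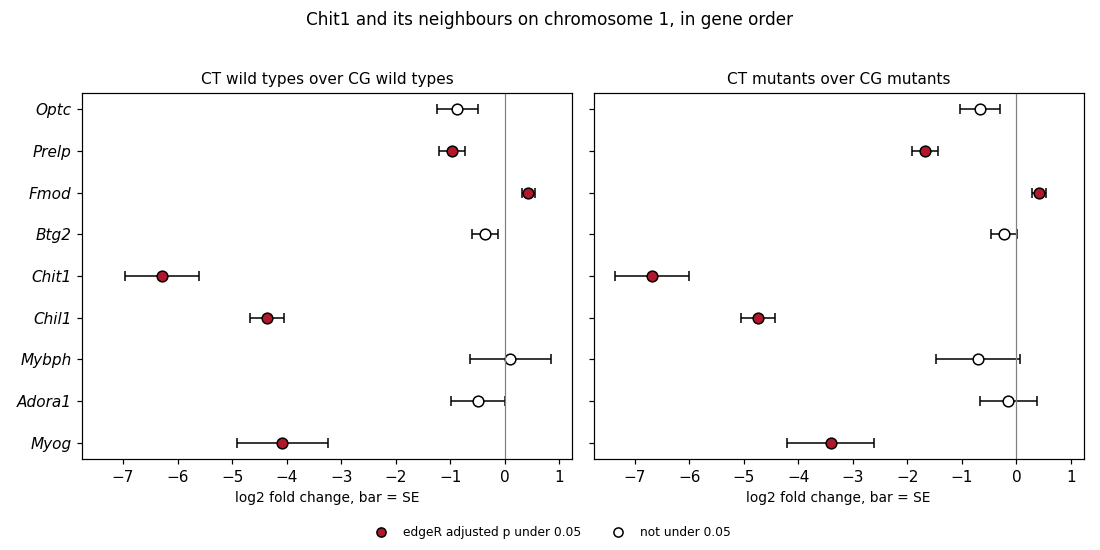
Log2 fold change of the CT over the CG line for Chit1 and the 4 protein-coding genes on either side of it, in chromosome order from top to bottom, among wild types (left) and mutants (right); bars are standard errors and filled points have an edgeR adjusted p under 0.05. Chit1, Chil1 and Myog lie below -3 in both panels, and Mybph and Adora1 between them did not pass.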

How the data were processed

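Per the labels' protocols, rib cartilage was digested with collagenase and the cells were plated before RNA extraction, and per the series design text libraries were sequenced on DNBSEQ. HISAT2 2.0.4 and the mm9 build are named in the submitters' processing notes, while the sources used here do not give the counter. Per the file headers, the authors deposited 2 values for each of 18501 genes in each library, an estimated count and FPKM. The estimated counts are not normalized. Between 2282 and 2518 of them in a library were fractional, and all were rounded. The authors' deposited comparison table covers 2655 genes, with a log2 ratio and a q-value for each comparison. A second deposited table repeats 3 of the libraries for 17730 genes, with 0 values that differ.

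Counts were fitted with edgeR 4.0.16 in R 4.3.3: 4 group means over 8 libraries, TMM factors, default filter on low counts, 14359 genes tested, Benjamini-Hochberg adjustment over all of them and a threshold of 0.05. All 10 markers passed the filter. CPM use the TMM-adjusted library size. Each standard error is |log2 fold change| over the root of its F statistic. DESeq2 1.42.0 and limma 3.58.1, on log2(FPKM + 1) and log2(FPKM + 0.1), were alternatives, as were no TMM scaling, no filter, only the groups compared, a replicate block, a term for sex and leaving out each library. The fit was also run on simulated counts with known changes, where the groups otherwise shared a common mean for each gene. That setting held neither a line difference nor an outlying library, and no result here rests on it. No pair of libraries agreed within sampling noise. Nothing in the labels ties the libraries to separate animals. The p-values thus reflect library-to-library spread only, possibly technical.

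The markers and gene lists were chosen with earlier results of these data known. Named genes are the 10 markers, the 3 most abundant genes of each other list, Spi1, Csf1, Il34, Lyz1, Col2a1, Acan and Col1a1, and the 10 genes most like the marker mean. Other genes named were chosen after their values were seen. Promoter windows, gene order and names come from RefSeq tables on GRCm38.p6, not the build of the counts.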

Additional observations from a re-analysis of the deposited data

How the results depend on the processing

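The calls of Chit1 between the lines held under every alternative run, and no marker passed in CT mutants against CT wild types under any. In CG mutants against CG wild types the number of markers past the threshold was 1 with DESeq2, 1 with no filter on low counts and 1 with a term for sex, Pik3cd each time, and 0 to 3 when a library was left out. Averaged over the lines it was 1 with DESeq2, 1 with the replicate block (Pik3cd, edgeR adjusted p = 0.0368) and 1 with a term for sex, and 0 to 5 when a library was left out. The count was 1 to 6 between the wild types of the lines and 2 to 10 between the mutants when a library was left out. Where that leaves a group with 1 library, it is assumed to vary like the other groups. In each of these 4 comparisons the number of all genes called also moved with the library left out. The ranges therefore do not describe the markers alone, and they measure neither the strength nor the instability of the marker differences. The replicate block could not be fitted for comparisons between lines. Same-numbered libraries shared deviations at a correlation of 0.25 in the CT line and -0.09 in the CG line. With 2 libraries per group this cannot settle whether they were paired. Ddx3y counts of mutant and wild type were 3512 and 3669 in CT replicate 1 and 30 and 10 in CT replicate 2. In CG replicate 1 they were 2231 and 2. The block changed no other call.

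Signs reversed in CT mutants against CT wild types for Cd68, at 0.034 without TMM, 0.029 on log2(FPKM + 1) and 0.030 on log2(FPKM + 0.1), and for Chit1, at 0.011 and 0.031 on these FPKM scales. With a library left out Cd68 ranged from -0.031 to 0.017 and Chit1 from -0.76 to 0.43. In CG mutants against CG wild types the ranges were -1.79 to 0.75 for Adgre1, -0.60 to 0.91 for Chit1, -2.80 to 0.24 for Csf1r, -1.55 to 0.14 for Itgam, -1.45 to 0.26 for Lyz2 and -2.80 to 0.17 for Tyrobp. In CT mutants against CG mutants they were -0.59 to 1.95 for Adgre1 and -0.042 to 3.00 for Csf1r. The median over the markers ranged from -1.62 to 0.068 in the CG line, from -1.08 to -0.60 in the CT line, from -0.74 to 0.66 for the difference of the mutant effects and from 0.36 to 2.03 between the mutants. The cause was not tested.

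Without TMM the median of all genes was 0.13 between the wild types and 0.20 between the mutants. Lower calls were then 1672 of 4887 between the wild types, against 2407 of 4843 with TMM, and 1577 of 5681 between the mutants, against 2620 of 5184. By CPM in place of FPKM, 8 of the 10 markers changed rank. Counts of 4 to 9 limit Chit1 in the CT line and Tyrobp and Ptprc in CG mutant replicate 1.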
